A study of Mus musculus with 6 samples.

Results

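The plasminogen activator system was examined in cultured mouse Sertoli cells through 7 genes: the activators Plau and Plat, the receptor Plaur, and the serpins Serpine2, Serpinb2, Serpina5 and Serpinb9. They were chosen by symbol, and each of the 7 was found, under 1 Ensembl identifier, among the 29275 identifiers in the files. RNA was sequenced from primary Sertoli cells, the somatic cells that support germ cells in the testis tubule, in 3 cultures labelled Arhgef15 cKO (conditional deletion of Arhgef15, described in the labels as a Sertoli cell knockout) and in 3 cultures labelled WT and untreated. All 6 were grown in the same serum-containing medium with EGF. The sources used here do not name the Cre driver, the age or strain of the mice, or the number of animals per culture. The replicates are labelled biological, but nothing says that they came from separate animals, so the p-values cover library-to-library spread that may be technical.

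Plasminogen activators are serine proteases that cut plasminogen into plasmin, a broad protease that degrades fibrin and matrix proteins. Plau encodes urokinase, which acts on the cell surface when it is bound to the receptor encoded by Plaur, and Plat encodes the tissue-type activator. Serpins are inhibitors that present a bait loop to a protease and trap it. Sertoli cells secrete plasminogen activators, and this activity has long been linked to the remodelling of the seminiferous epithelium, when germ cells cross the blood-testis barrier and when spermatids are released.

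The files hold FPKM (fragments scaled by gene length and library depth), so levels can be compared between genes. The smallest steps between values put the depth at 16790000 to 20320000 fragments per library. Arhgef15 did not check the labels: it was listed at 0.501, 0.322 and 0.338 FPKM in cKO replicates 1, 2 and 3, against 0.123, 0.0237 and 0.349 FPKM in WT replicates 1, 2 and 3, and the deleted exons are not given. WT replicate 3 stood apart from the other WT libraries. Across 12284 genes its log2 values correlated at 0.860 and 0.898 with WT replicates 1 and 2, and at 0.947, 0.929 and 0.921 with cKO replicates 1, 2 and 3 (Pearson, across genes, which are not independent replicates). This library was singled out from these same data, so results without it are given as a description and not as support for a difference. Summed over 12 Sertoli markers, levels were 665, 501 and 751 FPKM in cKO replicates 1, 2 and 3, against 226, 183 and 688 FPKM in WT replicates 1, 2 and 3. Fshr, the receptor for follicle-stimulating hormone that marks Sertoli cells, was listed at 0 in WT replicates 1 and 2 and lay between 0.202 and 1.42 FPKM in the other libraries. Summed over 15 macrophage and leukocyte markers, levels were 318, 179.8 and 237.5 FPKM in cKO replicates, against 1327, 1043 and 262 FPKM in WT replicates. Of these 15 macrophage markers, 0 were at 0 in any library, and of the 12 Sertoli markers Fshr was the only one. Lyz2 alone had 69.2, 37.1 and 69.4 FPKM in cKO replicates, against 648, 577 and 66.5 FPKM in WT replicates. Among the 14 tested macrophage markers, 13 had lower means in cKO and 1, Cd14, a higher one. Ptprc, the marker not tested, lay between 0.273 and 0.638 FPKM. In bulk RNA, fewer cells of a type and less RNA per cell cannot be told apart.

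The receptor and its ligand stood on opposite sides of the comparison. Plaur was higher and Plau lower in every cKO library than in every WT library, Serpinb2 varied most between libraries, and Serpinb9 was at a similar mean level in both groups. Of the 7 genes, 0 passed the test over all genes (limma on log2(FPKM + 1), adjusted p under 0.05), where 0.0163% of the 12284 tested genes passed. At an unadjusted p under 0.05 there was 1 of the 7, Plaur, against 6.81% of all tested genes. The mean log2 level was higher in cKO libraries for 5 genes (Plat, Plaur, Serpinb2, Serpina5 and Serpinb9) and lower for Plau and Serpine2. Over all tested genes, 59.8% had a higher mean in cKO libraries. The median log2 difference was 0.30 over the 7 genes and 0.08 over all tested genes. The groups did not overlap for 2 of the 7, 1 in each direction, where 11.3% of tested genes had groups that did not overlap (6.28% higher and 5.01% lower in cKO libraries). All 7 genes passed the filter on low values, Serpina5 with at least 1 FPKM in 5 of 6 libraries and the other 6 genes in all libraries.

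**Figure D1:**
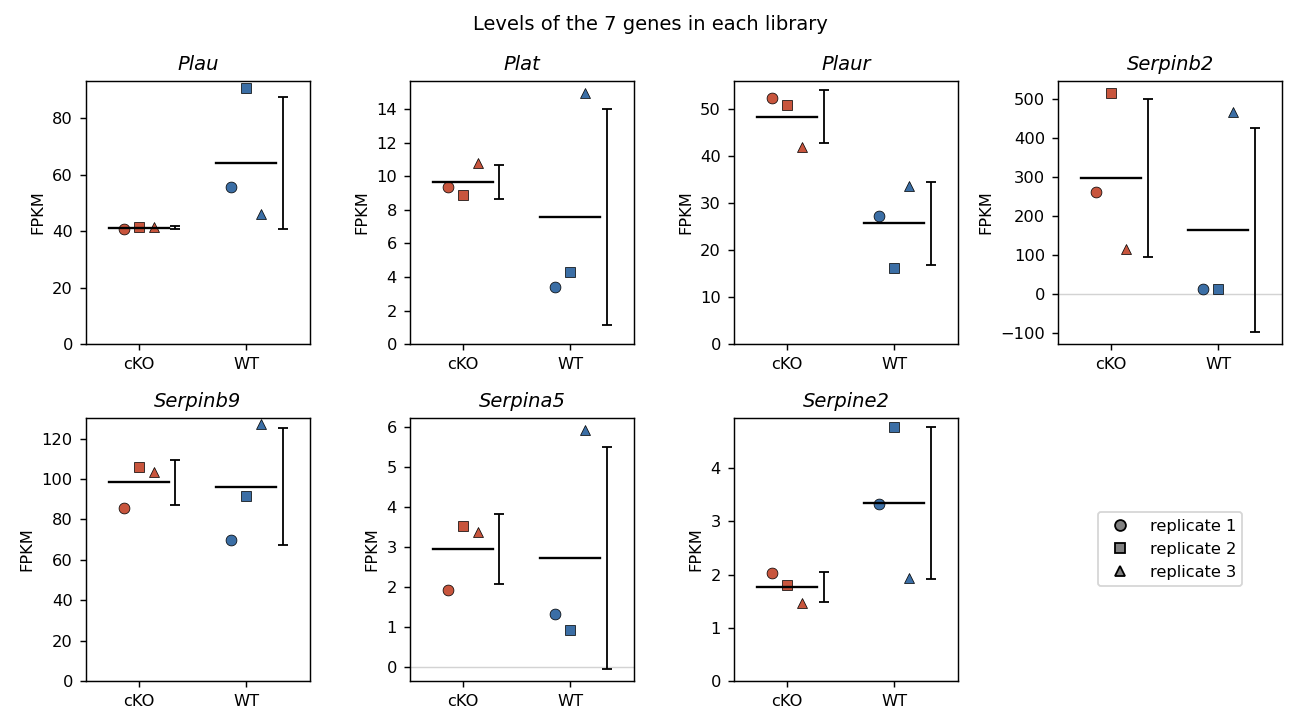
FPKM (linear axis) of the 7 genes in each library, cKO left and WT right, with marker shapes for replicates 1 to 3, horizontal lines at the group means and bars of 1 SD (n = 3 each). The 3 cKO points of Plau lie between 40.6 and 41.5 FPKM, below all WT points, the 3 cKO points of Plaur lie above all WT points, and WT replicate 3 sits far above the other WT libraries for Plat, Serpinb2 and Serpina5.

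Among the activators, Plau (ENSMUSG00000021822) was listed at 40.6, 41.5 and 41.4 FPKM in cKO replicates 1, 2 and 3, against 55.8, 90.7 and 46.2 FPKM in WT replicates 1, 2 and 3. The cKO libraries were nearly alike and all below the WT libraries, of which replicate 3 was closest to them. The means were 41.2 ± 0.473 FPKM in cKO and 64.2 ± 23.4 FPKM in WT libraries (SD, n = 3 each), which is -0.57 ± 0.27 (SE) on the log2 scale (limma, adjusted p = 0.755). Without WT replicate 2 the log2 difference was -0.29. Most of the spread of Plau thus lay within the WT group.

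Plat (ENSMUSG00000031538) was listed at 9.34, 8.85 and 10.8 FPKM in cKO replicates 1, 2 and 3, against 3.42, 4.30 and 15.0 FPKM in WT replicates 1, 2 and 3. The cKO values lay between the low pair of WT libraries and WT replicate 3, so the groups overlapped. The log2 difference of 0.56 ± 0.46 (SE) did not pass (limma, adjusted p = 0.864). Without WT replicate 3 it was 1.13 with an SE of 0.21, and it passed the threshold (limma, adjusted p = 0.0368), where 3.89% of all tested genes passed without that library. Without WT replicate 1 it was 0.21, without WT replicate 2 it was 0.34, and with a pseudocount of 5 it was 0.33, and none of these passed. Over all settings run, the adjusted p reached from 0.0368 for Plat, 0.0588 for Plaur and 0.0160 for Serpinb2 up to 1.00 for each of them. The amount of Plau relative to Plat, as an FPKM ratio, was 4.35, 4.69 and 3.85 in cKO replicates, against 16.3, 21.1 and 3.09 in WT replicates. Urokinase was thus the more abundant activator transcript in all 6 libraries, by the widest margin in WT replicates 1 and 2.

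Plaur (ENSMUSG00000046223), the membrane-anchored receptor of urokinase, was listed at 52.3, 50.9 and 41.9 FPKM in cKO replicates 1, 2 and 3, against 27.3, 16.2 and 33.6 FPKM in WT replicates 1, 2 and 3. Every cKO library was above every WT library, and WT replicate 3 was again the WT library nearest to them. The means were 48.3 ± 5.66 FPKM in cKO and 25.7 ± 8.83 FPKM in WT libraries (SD, n = 3 each), 1.88 times as high in cKO. The log2 difference was 0.94 with an SE of 0.29 and a 95% interval of 0.27 to 1.61, with an unadjusted p = 0.0121 that did not hold over all genes (limma, adjusted p = 0.608). Without WT replicate 3 the log2 difference was 1.16 (limma, adjusted p = 0.0588). The FPKM ratio of Plaur to Plau was 1.29, 1.23 and 1.01 in cKO replicates, against 0.489, 0.179 and 0.728 in WT replicates. Receptor transcripts thus exceeded those of the ligand in all 3 cKO libraries and fell short of them in all 3 WT libraries, though both were nearly level in cKO replicate 3.

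**Figure D2:**
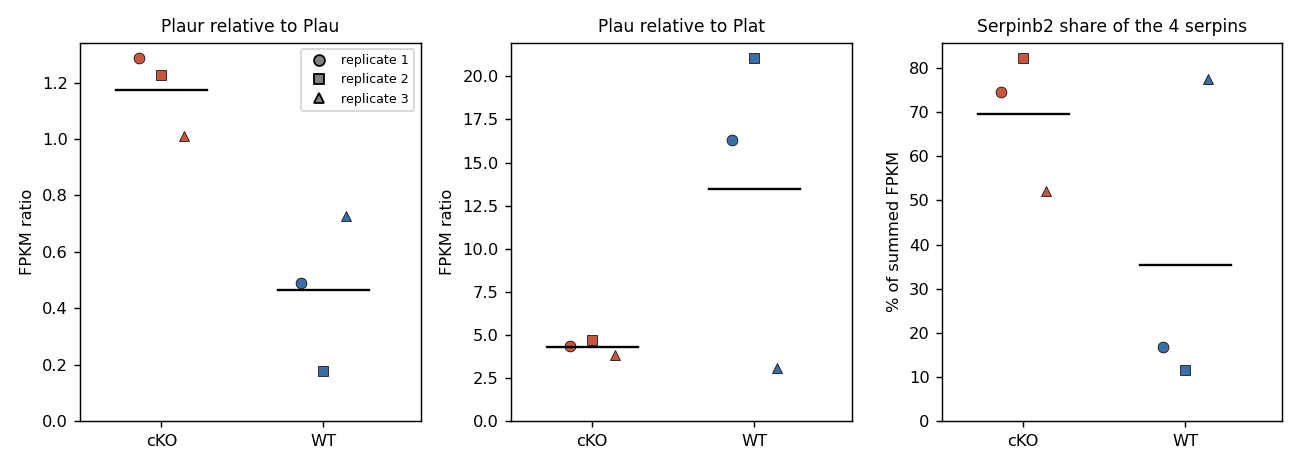
Ratios within each library (linear axes from 0), cKO left and WT right, with marker shapes for replicates and lines at group means: Plaur over Plau, Plau over Plat, and Serpinb2 as a percentage of the summed FPKM of Serpine2, Serpinb2, Serpina5 and Serpinb9. The Plaur ratio is above 1 in the 3 cKO libraries and at 0.728 or below in the 3 WT libraries, while for the other ratios WT replicate 3 lies apart from WT replicates 1 and 2 and near the cKO libraries.

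Serpinb2 (ENSMUSG00000062345) encodes plasminogen activator inhibitor 2, a clade B serpin that is largely kept inside the cell and inhibits urokinase. It was listed at 262.5, 516 and 117.5 FPKM in cKO replicates 1, 2 and 3, against 14.9, 12.7 and 468 FPKM in WT replicates 1, 2 and 3. WT replicates 1 and 2 were far below all others, and WT replicate 3 was above cKO replicates 1 and 3. The highest library was 40.6 times the lowest, the widest spread among the 7 genes, against 1.83 times for Serpinb9 and 6.42 times for Serpina5. The log2 difference of 2.43 ± 1.31 (SE) did not pass (limma, adjusted p = 0.770). Without WT replicate 3 it passed at 4.10 ± 0.55 (SE; limma, adjusted p = 0.0160), while it was 1.66 without WT replicate 1 and 1.55 without WT replicate 2 and passed in neither case. Serpinb2 made up 74.6%, 82.2% and 52.1% of the summed FPKM of the 4 serpins in cKO replicates 1, 2 and 3, against 16.7%, 11.6% and 77.6% in WT replicates 1, 2 and 3. Serpinb10, annotated as a polymorphic pseudogene, overlaps Serpinb2 on the same strand and was not found by symbol among the identifiers. The sources used here do not say how fragments in the overlap were counted.

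Serpinb9 (ENSMUSG00000045827), another intracellular clade B serpin, is best known as the inhibitor of the lymphocyte protease granzyme B rather than of plasminogen activators. It was listed at 85.5, 106.2 and 103.3 FPKM in cKO replicates 1, 2 and 3, against 69.8, 91.5 and 127.4 FPKM in WT replicates 1, 2 and 3. The WT libraries spanned the whole cKO range. Means were 98.3 ± 11.2 FPKM in cKO and 96.2 ± 29.1 FPKM in WT libraries (SD, n = 3 each), and the log2 difference of 0.07 had a 95% interval of -0.53 to 0.67 (limma, adjusted p = 0.970). Its direction turned with median-ratio scaling (-0.00020) and without WT replicate 1 (-0.14). The level is uncertain to the extent that fragments are shared with the near copies of this gene. Of those, Serpinb9b had 3.73, 6.03 and 3.46 FPKM in cKO replicates, against 17.7, 14.3 and 6.04 FPKM in WT replicates. That copy was lower in every cKO library, though cKO replicate 2 and WT replicate 3 were almost level, and its log2 difference of -1.25 ± 0.39 (SE) did not pass (limma, adjusted p = 0.608). Without WT replicate 3 it was -1.67 (limma, adjusted p = 0.0247). Among 13 listed granzyme and cytotoxic lymphocyte genes, 8 were found and 0 reached the filter, with summed levels of 1.27, 0.391 and 0.497 FPKM in cKO replicates, against 1.47, 0.381 and 0.556 FPKM in WT replicates. The highest granzyme transcripts were Gzmm, at 0.174 to 0.946 FPKM, and Gzmc, listed at 0 in all 3 cKO libraries and at 0.895, 0.172 and 0 FPKM in WT replicates. Cd3e, a marker of T cells, stayed at 0.215 FPKM or below.

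The secreted serpins among the 7 were the lowest. Serpine2 (ENSMUSG00000026249) encodes protease nexin 1, which inhibits urokinase, the tissue-type activator and thrombin. It was listed at 2.04, 1.80 and 1.47 FPKM in cKO replicates 1, 2 and 3, against 3.32, 4.78 and 1.93 FPKM in WT replicates 1, 2 and 3. WT replicates 1 and 2 were above all others, and WT replicate 3 lay just under cKO replicate 1. The log2 difference of -0.60 ± 0.29 (SE) did not pass (limma, adjusted p = 0.755). It was -0.37 without WT replicate 2 and -0.29 with a pseudocount of 5.

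Serpina5 (ENSMUSG00000041550), the protein C inhibitor, also inhibits plasminogen activators, and male mice that lack it are infertile. It was listed at 1.93, 3.53 and 3.38 FPKM in cKO replicates 1, 2 and 3, against 1.33, 0.925 and 5.94 FPKM in WT replicates 1, 2 and 3. The cKO values lay between the low WT pair and WT replicate 3. The fragments behind them numbered 81, 128 and 147 in cKO replicates, against 54, 39 and 261 in WT replicates. The exact Poisson 95% interval was 27.7 to 53.3 fragments in WT replicate 2 and 230.3 to 294.7 in WT replicate 3, for counting error only. The log2 difference between groups was 0.30 ± 0.49 (SE; limma, adjusted p = 0.925), and it turned to -0.054 without WT replicate 2. It was 0.084 without WT replicate 1, 0.87 without WT replicate 3, 0.50 without cKO replicate 1 and 0.19 without cKO replicate 2. With pseudocounts of 0.1 and 5 it was 0.51 and 0.091, and with quantile scaling 0.15.

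**Figure D3:**
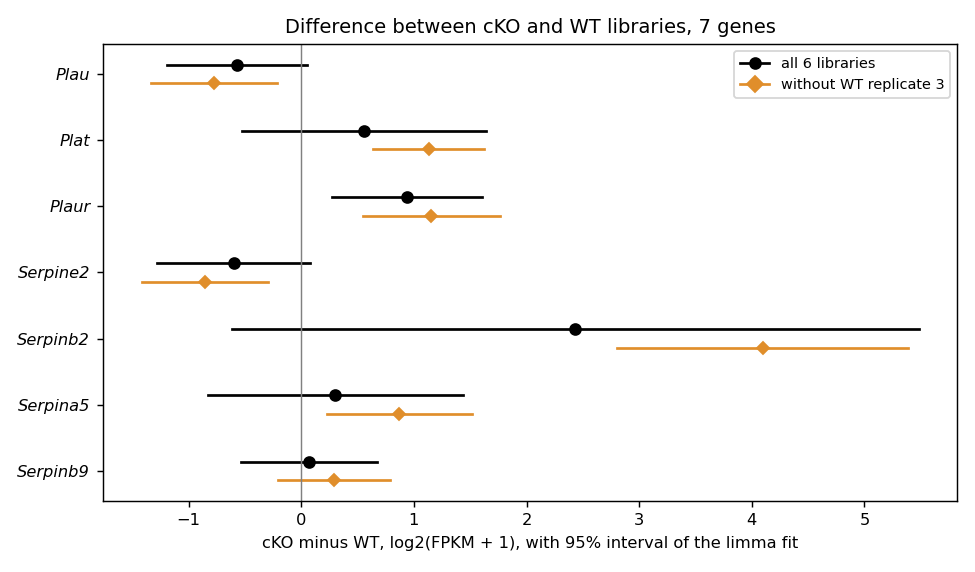
Differences of cKO minus WT on the log2(FPKM + 1) scale (horizontal axis) for the 7 genes, with 95% intervals of the limma fit, for all 6 libraries (black circles) and without WT replicate 3 (orange diamonds). Of the black intervals, that of Plaur (0.27 to 1.61) leaves out 0, and without WT replicate 3 the value of Serpinb2 moves to 4.10 from 2.43 and that of Plat to 1.13 from 0.56. WT replicate 3 was singled out from these same data, so the orange values are a description only.

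In the order of mean levels in cKO libraries, Serpinb2 (299 ± 202 FPKM) was followed by Serpinb9 (98.3 ± 11.2), Plaur (48.3 ± 5.66), Plau (41.2 ± 0.473), Plat (9.65 ± 0.991), Serpina5 (2.95 ± 0.882) and Serpine2 (1.77 ± 0.283). Ranges of neighbours overlapped only for Serpina5 and Serpine2. In WT libraries the order was Serpinb2 (165.2 ± 262 FPKM), Serpinb9 (96.2 ± 29.1), Plau (64.2 ± 23.4), Plaur (25.7 ± 8.83), Plat (7.56 ± 6.43), Serpine2 (3.34 ± 1.43) and Serpina5 (2.73 ± 2.79). There, the ranges of Plau and Plaur and those of Plaur and Plat did not overlap, and all other neighbours did. Plau and Plaur thus changed places between the groups, while Serpine2 and Serpina5 were not separated from each other in either group. By mean FPKM over all 6 libraries, Serpinb2 ranked 184 and Serpinb9 ranked 500 among 12284 tested genes, and Serpine2 ranked 9778.

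Promoter sequences are shown for Plaur and Serpinb2, which both had higher means in cKO libraries, and for Serpine2, which had a lower mean. Each is the 250 bases before the annotated start, 5′ to 3′, from RefSeq in build GRCm38.p6. Of the 7 genes, 5 had an entry (Plaur, Serpine2, Serpinb2, Serpina5 and Serpinb9). Capitals mark matches to the AP-1 motif TGANTCA or the TATA box TATAAA on either strand, which did not overlap each other.
Plaur promoter, chr7:24462233-24462482, plus strand: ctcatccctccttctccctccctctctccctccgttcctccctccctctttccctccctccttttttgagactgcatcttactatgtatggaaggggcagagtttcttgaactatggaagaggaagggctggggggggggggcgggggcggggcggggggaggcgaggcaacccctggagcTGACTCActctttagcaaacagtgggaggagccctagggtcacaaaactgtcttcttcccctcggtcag
Serpinb2 promoter, chr1:107511173-107511422, plus strand: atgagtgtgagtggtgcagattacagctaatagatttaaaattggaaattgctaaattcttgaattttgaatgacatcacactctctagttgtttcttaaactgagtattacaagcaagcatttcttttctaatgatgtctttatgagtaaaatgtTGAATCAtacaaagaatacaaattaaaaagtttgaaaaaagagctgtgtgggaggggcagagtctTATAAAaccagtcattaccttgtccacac
Serpine2 promoter, chr1:79858666-79858915, minus strand: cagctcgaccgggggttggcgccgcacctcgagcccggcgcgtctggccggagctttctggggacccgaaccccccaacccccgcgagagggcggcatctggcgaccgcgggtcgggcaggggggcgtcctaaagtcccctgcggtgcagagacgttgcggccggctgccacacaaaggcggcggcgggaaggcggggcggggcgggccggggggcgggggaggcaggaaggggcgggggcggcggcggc
The Plaur stretch held 1 AP-1 match, which begins 69 bases before the start, and the Serpinb2 stretch held 1 that begins 94 bases before the start. Serpinb2 also held 1 TATA match, 29 bases before the start. The promoters of Serpine2, Serpina5 and Serpinb9 held 0 matches to either motif, though Serpina5 and Serpinb9 also had higher means in cKO libraries. Among 27025 promoters of the same length, 6.87% held the AP-1 letters and 13.0% the TATA letters. A search for the CRE motif TGACGTCA, held by 1.62% of promoters, gave 0 matches in these 5 genes. A match describes the letters and does not show that a factor binds there.

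Of 25 other genes of the plasminogen system, 23 were found and 13 tested. Means were higher in cKO libraries for 6 and lower for 7, with a median log2 difference of -0.08, and 0 passed (limma), with 0 at an unadjusted p under 0.05. Eno1, a glycolytic enzyme that also binds plasminogen at the cell surface, had 588, 421 and 343 FPKM in cKO replicates, against 877, 676 and 497 FPKM in WT replicates (adjusted p = 0.755). S100a10, which with Anxa2 forms a surface complex that binds plasminogen and its tissue-type activator, was lower in every cKO library, at 134.7 ± 16.2 FPKM against 175.0 ± 16.3 FPKM in WT libraries (SD, n = 3 each; limma, adjusted p = 0.761). Its partner Anxa2 had 280.1 ± 30.0 FPKM in cKO and 309 ± 118 FPKM in WT libraries (limma, adjusted p = 0.966). Itgb3, the integrin beta 3 subunit that pairs with alpha V as a vitronectin receptor, had 13.98, 10.99 and 7.23 FPKM in cKO replicates, against 0.624, 0.721 and 15.7 FPKM in WT replicates. It did not pass with all libraries (limma, adjusted p = 0.757) and was 2.77 higher on the log2 scale without WT replicate 3 (limma, adjusted p = 0.0106). In that setting, 3.89% of all tested genes passed. The filter was set on all 6 libraries. WT replicates 1 and 2 lay below 1 FPKM for Itgb3, so without WT replicate 3 only cKO libraries reached that level. The pass is therefore not support for a difference. Spint2, a Kunitz-type inhibitor of serine proteases named here after its values were seen, had 10.4, 6.30 and 5.65 FPKM in cKO replicates, against 1.25, 1.15 and 11.3 FPKM in WT replicates. It was the other gene of this list to pass without WT replicate 3 (limma, adjusted p = 0.0208).

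Of 25 other clade B serpins, 16 were found and 5 tested, of which 2 had higher and 3 lower means (median log2 difference -0.36), and 0 passed (limma), with 1 at an unadjusted p under 0.05, Serpinb9b. Serpinb6a and Serpinb8 are also on the list of other plasminogen system genes, as are Serpinf2 and Serpini1 from other clades. Of these only Serpinb6a was tested, and its lower mean is counted in both lists. Groups did not overlap for 3 of the 5 tested clade B serpins, all lower in cKO, against 5.01% of all tested genes. Besides Serpinb9b, these were Serpinb1a, an inhibitor of neutrophil proteases, with 35.2 ± 6.62 FPKM in cKO and 48.0 ± 1.54 FPKM in WT libraries, and Serpinb6a, with 76.4 ± 6.20 FPKM in cKO and 98.4 ± 10.9 FPKM in WT libraries (SD, n = 3 each; limma, adjusted p = 0.736 and 0.768). Serpinb6b had 98.1 ± 20.03 FPKM in cKO and 92.9 ± 41.2 FPKM in WT libraries (limma, adjusted p = 0.949). Of 31 serpins in other clades, 26 were found and 8 tested, with 1 higher and 7 lower means (median log2 difference -0.39), and 0 passed (limma), with 1 at an unadjusted p under 0.05. That gene was Serpina3n, an acute phase serpin, with 75.0, 39.2 and 61.9 FPKM in cKO replicates, against 135.8, 84.5 and 85.7 FPKM in WT replicates (limma, adjusted p = 0.680). Its relative Serpina3m had 2.104 ± 0.959 FPKM in cKO and 3.50 ± 1.08 FPKM in WT libraries (limma, adjusted p = 0.779). Serpinh1, the collagen chaperone, had 709 ± 53.7 FPKM in cKO and 790.3 ± 309 FPKM in WT libraries (limma, adjusted p = 0.975). Serpinf1, a secreted serpin without inhibitory activity, had 142.4, 139.6 and 126.0 FPKM in cKO replicates, against 349, 274 and 92.3 FPKM in WT replicates, and passed without WT replicate 3 with a log2 difference of -1.18 (limma, adjusted p = 0.0291).

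The 7 genes did not share a single profile over the libraries. Serpinb2, Plat and Serpina5 were lowest in WT replicates 1 and 2 and high in WT replicate 3. The Sertoli marker list was also lowest in WT replicates 1 and 2, with mean log2 levels of 3.71, 3.41 and 3.80 in cKO replicates 1, 2 and 3, against 2.66, 2.57 and 3.72 in WT replicates 1, 2 and 3. So was the endothelial marker list, with mean log2 levels of 3.16, 2.22 and 2.53 in cKO replicates, against 1.64, 1.49 and 2.55 in WT replicates, and 7 of its 8 tested genes had higher means in cKO. Plau and Serpine2 were highest in WT replicate 2 and next highest in WT replicate 1. The macrophage marker list had mean log2 levels of 3.75, 2.84 and 3.28 in cKO replicates, against 5.02, 4.71 and 3.61 in WT replicates, and the fibroblast list had 4.12, 4.13 and 4.39 in cKO replicates, against 4.54, 5.09 and 4.26 in WT replicates. The peritubular myoid list had mean log2 levels of 5.08, 4.49 and 6.16 in cKO replicates, against 6.28, 5.99 and 4.94 in WT replicates, so cKO replicate 3 lay above WT replicate 2. Of its 7 genes, 5 had lower means in cKO, and Myh11 and Des had higher ones. The Leydig list had mean log2 levels of 3.34, 3.00 and 2.65 in cKO replicates, against 4.17, 3.28 and 3.11 in WT replicates. Spermatogonia and spermatocyte markers had 2.75, 0.61 and 1.45 in cKO replicates, against 0.49, 0.80 and 3.06 in WT replicates. Spermatid markers had 4.47, 2.73 and 1.33 in cKO replicates, against 3.72, 2.79 and 3.75 in WT replicates. The part of these marker levels in the values of the 7 genes was not tested.

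**Figure D4:**
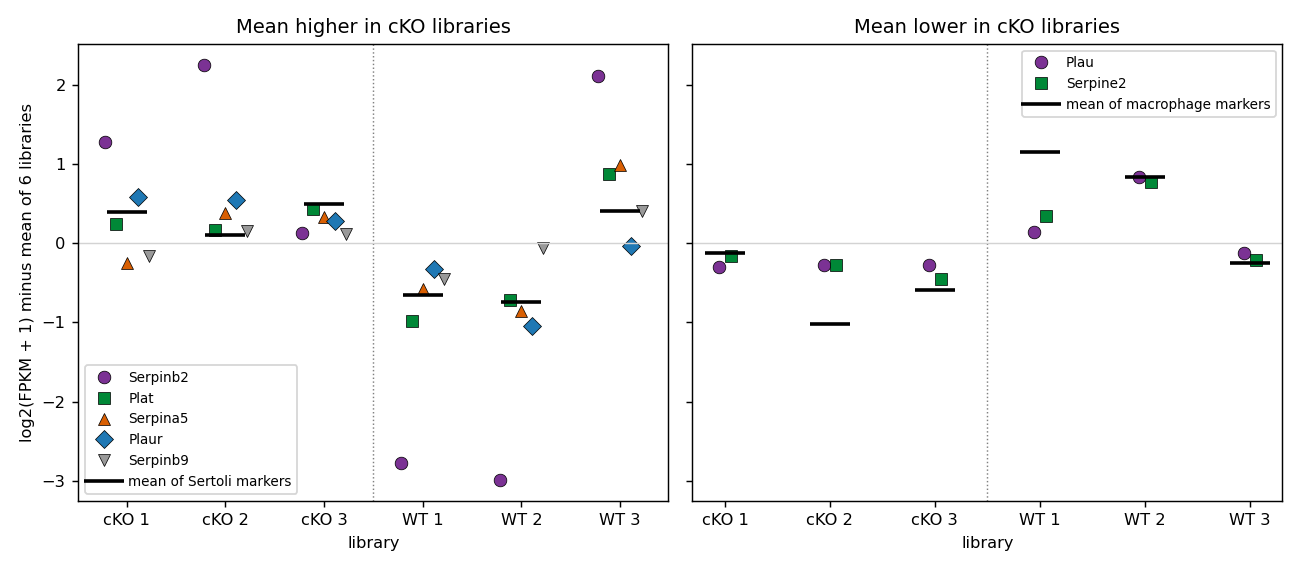
Levels on the log2(FPKM + 1) scale relative to each gene's own mean over 6 libraries (vertical axis), by library (horizontal axis, cKO left of WT), for the 5 genes with higher means in cKO (left panel) and the 2 with lower means (right panel). Black dashes show the mean of the Sertoli markers (left) and of the macrophage markers (right), drawn the same way. Other marker lists are not drawn. The macrophage markers are highest in WT replicate 1, and Plau and Serpine2 in WT replicate 2. Serpinb2 spans 5.24 on this scale, with WT replicates 1 and 2 lowest, and in the right panel WT replicates 1 and 2 are the highest libraries.

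Genes with the most similar profiles were named by the smallest root mean square difference on the log2 scale over the 6 libraries, each profile centred on its own mean, as a description only. Nearest to Plau were Stx2 (0.11), Boc (0.11) and Rap2a (0.13), and nearest to Serpine2 were Dennd2a (0.09), the proteoglycan gene Bgn (0.09) and Ap2a2 (0.11). Nearest to Plat were Me2 (0.08), Acot13 (0.10) and Fam214a (0.11). The genes closest to Plaur were Zfp703 (0.14), Csrnp1 (0.15) and Rnf19b (0.17). For Serpina5 they were the lysosomal protease gene Ctsl (0.22), Trit1 (0.24) and Lrrc8b (0.25). For Serpinb2 they were the acute phase gene Saa3 (0.33), Pglyrp3, a peptidoglycan recognition protein (0.46), and the cytokine gene Il6 (0.51). These differences were larger, but the measure is not scaled to span. Serpinb2 spanned 5.24 on the log2 scale, against 1.14 to 1.85 for the other members compared. Il6 had 19.7, 47.1 and 8.30 FPKM in cKO replicates, against 0.813, 2.01 and 42.6 FPKM in WT replicates, so it shared with Serpinb2 the high values of cKO replicate 2 and WT replicate 3. Serpinb9 spanned under 1 on the log2 scale and was not compared.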

How the data were processed

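RNA from 6 cultures was sequenced, 3 labelled Arhgef15 cKO and 3 WT, and grouped by title and genotype label. The deposited files give 1 value per gene and state no unit. The authors' values were taken as FPKM, since multiplying by exonic length gave whole multiples of a library-specific step (99.0% to 99.4% of single-exon values up to 10 fragments, within 0.02 times the number). Fragment numbers came from these steps and GENCODE M21 lengths. Per the submitters' processing notes, reads went through FastQC and HISAT2 2.1.0, and the build is given as mm8. Which counter, annotation and strand option the authors used is not given in the sources used here. Of 29275 identifiers, 28932 matched a symbol.

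The 12284 genes that reached 1 FPKM in 3 or more of the 6 libraries were fitted as log2(FPKM + 1), which understates changes of low genes, with limma 3.58.1 under R 4.3.3. The model held genotype alone, with a trended eBayes step, two-sided p-values adjusted by Benjamini-Hochberg, and a threshold of 0.05. No count model was used. Intervals are those of the fit. The fit was also run on simulated data, with independent noise of the same spread in all libraries for each gene. That run held no library that stood apart as WT replicate 3 did, so it does not cover this feature. Values of 1 gene of the lists are not reported here. Members and gene lists were chosen with earlier results of these data known. Named genes were the 7 members, Arhgef15, the 3 of each other list with the highest mean and the 3 with the smallest p, and the 3 nearest profiles (means of at least 5 FPKM, spans of at least 1). Python 3.11.15 made tables and figures. Alternatives changed the filter (none, or 5 FPKM), the pseudocount (0.1 or 5), the scaling (quantile or median-ratio), library weights and the threshold (0.1), added a replicate block, or left out 1 library at a time.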

Additional observations from a re-analysis of the deposited data

How the results depend on the processing

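With all 6 libraries, none of the filters, pseudocounts, scalings, weights or thresholds tried made any of the 7 genes pass. Plau, Plat, Plaur, Serpine2 and Serpinb2 kept their direction in every setting run. Serpine2 and Serpina5 lay below the stricter filter and gave no value there. In all, 91 alternative values of single genes kept their direction and their side of the threshold, 3 turned and 2 passed. With median-ratio scaling Serpinb9 turned to -0.00020, and it turned to -0.14 without WT replicate 1, as did Serpina5 to -0.054 without WT replicate 2. With 1 library left out, Serpinb9 ranged up to 0.29 and Serpina5 up to 0.87, both without WT replicate 3. Plat (1.13) and Serpinb2 (4.10) passed only without that library. With 1 library left out, the genes past the threshold numbered 0 to 478 over all genes, against 2 with all libraries. Among the 7 genes there were 0 to 2, and likewise 0 to 2 among other plasminogen system genes, 0 to 1 among other clade B serpins and 0 to 1 among other serpins. Each highest count came without WT replicate 3, and the cause was not tested. Since that library was singled out from these same data, passes without it are not support for a difference. Over all genes, 0 passed without the filter on low values, where 29275 were tested, and 0 with the replicate block. The replicate numbers share no named litter or day. Same-numbered libraries deviated from their group means with correlations of 0.14, 0.03 and -0.21, and not every library correlated best with its own number. With 3 libraries per genotype, such correlations cannot decide whether the numbers pair the samples. With the block Plaur had 0.94 (limma, adjusted p = 0.589) and 0 of the 7 genes passed. Genes listed below 1 FPKM, such as the granzymes, rest on few fragments.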
